A study of Mus musculus with 51 samples.

Results

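The astrocyte and gliosis genes Gfap, Vim, Sox9, Aqp4, Gja1 and Aldoc were followed in laser-captured hippocampal neuron layers of a mouse model of tauopathy. All probe sets that the platform annotation gives to these 6 symbols were taken, whatever their signal, which made 16 of the 22626 probe sets tested (2 for Gfap, 3 for Vim, 2 for Sox9, 2 for Aqp4, 5 for Gja1 and 2 for Aldoc). The data are 51 arrays, and the labels give the 17 mice behind them as females aged 4.5 months, each with 1 array for the pyramidal layer of CA1, the pyramidal layer of CA3 and the granular layer of the dentate gyrus (DG). The 6 rTg4510 mice carried both a responder transgene for human tau with the P301L mutation and the CaMKIIα-tTA transactivator, whose promoter is active in forebrain neurons. The 5 tTA mice carried the transactivator without the tau transgene, and the 6 DN mice were littermates with neither transgene. The layers were cut from frozen brain sections stained with cresyl violet, so that each array holds the neuron bodies of a layer together with whatever glia lie between them. In such bulk samples, a higher signal from more cells of a type cannot be told apart from more RNA per cell of that type. Signals are RMA values on the log2 scale, on which a difference of 1 is a doubling, and they were compared only within a probe set.

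Astrocytes are the glia that surround synapses and capillaries, take up transmitter and potassium, and fill the neuropil between neuron bodies. When neurons are damaged, nearby astrocytes enlarge and build more of the intermediate filaments of their cytoskeleton, a response called gliosis. Gfap and Vim are these filament proteins, Sox9 is a transcription factor of the astrocyte lineage, Aqp4 is the water channel of the endfeet on blood vessels, Gja1 (connexin 43) forms the gap junctions that couple astrocytes, and Aldoc is the brain form of the glycolytic enzyme aldolase. In the inner border of the DG granular layer lie neural stem cells with processes that also hold Gfap and Vim.

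The RefSeq promoter table, on build GRCm38.p6, held windows for 4 of the 6 genes, and the 250 bases before the annotated start are shown for the filament genes, which differed most between subfields at their brightest probe sets, and for Gja1, which has the most probe sets. Capitals mark matches on either strand to any of 6 motifs, namely TTCNNNGAA (the spacing bound by STAT factors), TGANTCA (AP-1), ACAAT (the SOX core), TATAAA (the TATA box), CCAAT (the CCAAT box) and GGGCGG (the GC box).
Gfap, chr11:102897201-102897450, minus strand: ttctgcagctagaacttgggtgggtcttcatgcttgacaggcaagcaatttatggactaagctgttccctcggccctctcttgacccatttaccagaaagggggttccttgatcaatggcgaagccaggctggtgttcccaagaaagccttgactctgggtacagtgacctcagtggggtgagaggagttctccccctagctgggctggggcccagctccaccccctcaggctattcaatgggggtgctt
Vim, chr2:13574061-13574310, plus strand: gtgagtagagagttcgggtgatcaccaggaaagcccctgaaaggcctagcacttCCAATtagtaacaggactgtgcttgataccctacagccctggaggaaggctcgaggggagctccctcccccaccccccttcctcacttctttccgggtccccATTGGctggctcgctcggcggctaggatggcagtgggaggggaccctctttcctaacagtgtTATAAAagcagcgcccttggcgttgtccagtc
Gja1, chr10:56377050-56377299, plus strand: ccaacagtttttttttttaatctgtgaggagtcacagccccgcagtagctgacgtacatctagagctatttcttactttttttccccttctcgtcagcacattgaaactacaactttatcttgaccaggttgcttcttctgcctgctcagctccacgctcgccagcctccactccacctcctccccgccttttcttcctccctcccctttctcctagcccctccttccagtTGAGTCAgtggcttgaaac
The Vim window held a TATA box with its first base 32 bases before the start, and CCAAT boxes at 196 and 94 bases before it. The Gja1 window held 1 AP-1 match, 19 bases before the start, and none of the 6 motifs matched in the Gfap window. Aldoc has 2 annotated starts, and the window of the downstream start held 2 STAT-type matches while that of the upstream start held 1 SOX core and 1 GC box. Over all 32851 windows of this length, 7.02% held a STAT-type match, 6.75% an AP-1 match, 27.7% a SOX core, 12.4% a TATA box, 33.8% a CCAAT box and 32.7% a GC box. A match is a description of letters, and no match says only that these letters are not in the window.

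The array medians lay between 2.91 and 3.12, but the signals were normalized between arrays, so that like medians are no measure of array quality. Of 10 subfield markers, 9 had their highest mean in the subfield they mark, and Prox1 and Dsp of the DG were above every CA1 and CA3 array in all 17 DG arrays. The same held in fewer of the 17 arrays for C1ql3 (15) and Calb1 (11) of the DG. For CA1 it held in 12 arrays for Crym and 8 for Pou3f1, and for CA3 in 9 for Prkcd, 7 for Bok and 2 for Synpr. Bcl6, listed for CA1, was highest in the DG. The tau transgene of this line is carried on mouse prion gene (Prnp) sequence, and the Prnp signal went against the label on 5 arrays. It was between 9.65 and 10.44 on the 3 arrays labelled DN mouse 4 and 9.93 on the array labelled DN mouse 5, DG, and it was 7.34 on the array labelled rTg4510 mouse 3, DG, beside 9.59 to 10.55 on the other rTg4510 arrays and 6.57 to 8.76 on the other tTA and DN arrays. Xist, the noncoding RNA of the inactive X chromosome in females, was low on that rTg4510 array (2.50) and on 2 further arrays of DN mouse 5, from CA1 (2.49) and CA3 (4.06), while it was at least 7.85 on the other arrays. The DG array labelled DN mouse 5 read 9.91 for Xist, unlike the CA1 and CA3 arrays of that mouse, whose low Xist goes against the label of a female. An exchange of the DG arrays of DN mouse 5 and rTg4510 mouse 3 would give these readings, which was not tested. Counts are therefore also given without the 5 arrays, or without 7 that add those of DN mouse 5.

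Gfap had a mean signal in CA1 of rTg4510 mice that was 4.54-fold that of tTA mice, with a wide spread between mice, and the difference did not pass the test. Its brighter probe set (1426509_s_at) in CA1 read 4.15, 4.62, 5.21, 3.71 and 4.71 in the 5 tTA mice. In the 6 rTg4510 mice it ran from 5.07 over a median of 6.28 to 8.65, and in the 6 DN mice from 3.92 over 4.55 to 5.88. Of the 6 rTg4510 arrays, 5 lay above the highest tTA array, so that the groups overlapped by 1 array. The means were 6.66 ± 1.38 (SD, n = 6) in rTg4510, 4.48 ± 0.57 (SD, n = 5) in tTA and 4.64 ± 0.74 (SD, n = 6) in DN mice. The difference from tTA mice was 2.18 (SE 0.55, limma adjusted p = 0.999), and it was 2.23 (SE 0.91) at the second probe set, 1426508_at. Without rTg4510 mouse 4, the brightest array, the difference was 1.79.

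The Gfap differences of the other subfields were nearer to 0. In CA3 the means were 6.44 ± 0.79 (SD, n = 6) in rTg4510, 5.42 ± 1.13 (SD, n = 5) in tTA and 5.66 ± 1.45 (SD, n = 6) in DN mice, a difference from tTA of 1.02 (SE 0.65, limma adjusted p = 0.855). In the DG they were 7.74 ± 0.85 (SD, n = 6), 7.59 ± 0.74 (SD, n = 5) and 6.57 ± 1.82 (SD, n = 6), a difference from tTA of 0.15 (SE 0.71, limma adjusted p = 0.994). In the DG, 0 of the 6 rTg4510 arrays lay above the highest tTA array. The 3 arrays labelled DN mouse 4, whose Prnp lies in the range of rTg4510 arrays, were the highest of the DN group in every subfield for this probe set of Gfap (CA1 5.88, CA3 8.06, DG 8.14). At the second probe set the CA1 array of that mouse read 4.19, below the DN maximum of 5.62. The doubted array of DN mouse 5 in the DG read 8.07 at the brighter set. Without the 5 doubted arrays the DG means were 5.81 ± 1.78 (SD, n = 4) in DN and 8.04 ± 0.47 (SD, n = 5) in rTg4510 mice, a difference of 2.23 (SE 0.66, limma adjusted p = 0.490) in place of 1.16 (SE 0.68, limma adjusted p = 0.967).

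**Figure D1:**
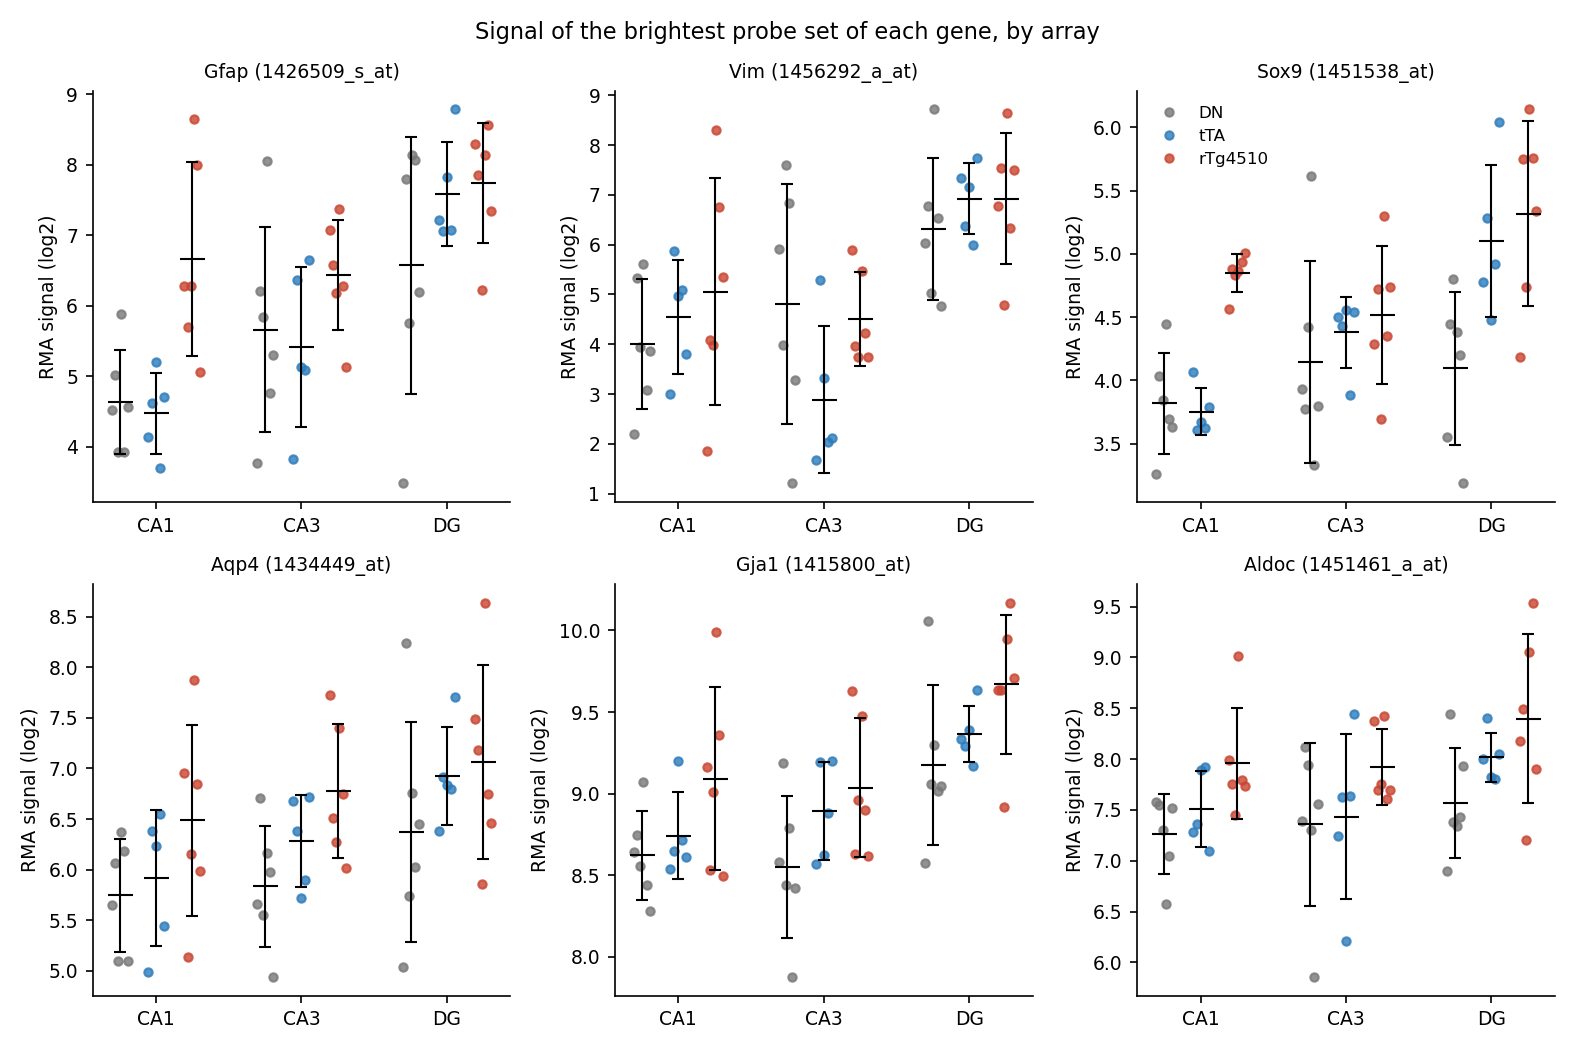
RMA signal (log2) of the brightest probe set of each of the 6 genes on all 51 arrays, by subfield and by genotype (grey DN, blue tTA, red rTg4510). Points are arrays, horizontal marks are means and bars are SDs over 5 or 6 mice, and in CA1 the 6 rTg4510 arrays of Sox9 lie above all 11 control arrays while those of the other 5 genes overlap with controls.

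Sox9, the lineage factor, separated the groups in CA1, without passing the test in the fit of all 3 genotypes. Its brighter probe set (1451538_at) in CA1 read 4.07, 3.61, 3.67, 3.63 and 3.79 in the 5 tTA mice. It ran from 3.26 over a median of 3.77 to 4.45 in DN mice and from 4.57 over 4.87 to 5.00 in rTg4510 mice. Every rTg4510 array was above every tTA and every DN array, and the SD over rTg4510 mice was 0.15 (n = 6). Of all probe sets, 0.168% had every rTg4510 array above every tTA array in CA1, and 1 of the 16 did. In CA3 the same held for 0.243% of all probe sets and in the DG for 0.164%, and for 0 of the 16 in either subfield. The difference in CA1 was 1.09 (SE 0.17, 2.13-fold, limma adjusted p = 0.130) from tTA mice and 1.03 (SE 0.17, limma adjusted p = 0.129) from DN mice, neither of which passed the threshold of 0.05.

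The call on Sox9 depended on single arrays and on the fit. Without DN mouse 4, whose CA1 array was the highest DN array for Sox9 (4.45) and which is doubted for its Prnp, the difference from tTA mice stayed at 1.09 and passed (limma adjusted p = 0.0142), as did that from DN mice (limma adjusted p = 0.00729). It also passed against tTA mice when the 2 genotypes were fitted alone (0.0215), with array weights (0.00227), with Fisher's LSD on linear signals (0.0341) and without the 7 arrays (0.0335), all as adjusted p. Leaving out 1 of the other 16 mice gave adjusted p up to 0.596. Of 11 other alternatives on log2 signals, 4 called Sox9 against tTA mice in CA1 and the rest did not. The adjusted p went up to 0.9997 among them, with the mouse as a random block over all arrays. The dimmer probe set of Sox9 (1424950_at), whose mean signal is below the median of the arrays, differed by −0.01 (SE 0.22) in CA1, and the pair of probe sets correlated at r = 0.397 over the 51 arrays once subfield means were removed.

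In CA3, Sox9 was 4.52 ± 0.54 (SD, n = 6) in rTg4510, 4.38 ± 0.28 (SD, n = 5) in tTA and 4.15 ± 0.80 (SD, n = 6) in DN mice. In the DG it was 5.32 ± 0.73 (SD, n = 6), 5.10 ± 0.60 (SD, n = 5) and 4.10 ± 0.60 (SD, n = 6). The groups overlapped in both subfields, and in the DG the lower values were those of DN mice, 1.22 (SE 0.36, limma adjusted p = 0.967) below rTg4510 and 1.005 (SE 0.37, limma adjusted p = 0.935) below tTA mice. Between rTg4510 and tTA mice the DG values differed by 0.22 (SE 0.37).

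Vim, the second filament gene, had the widest spread between mice of a group, with SDs up to 2.41. In CA1 its brightest probe set (1456292_a_at) was 5.06 ± 2.27 (SD, n = 6) in rTg4510, 4.54 ± 1.14 (SD, n = 5) in tTA and 4.01 ± 1.31 (SD, n = 6) in DN mice. In CA3 it was 4.51 ± 0.94 (SD, n = 6), 2.89 ± 1.48 (SD, n = 5) and 4.81 ± 2.41 (SD, n = 6), so that tTA mice were the lowest and rTg4510 mice lay near DN mice. The rTg4510 arrays of CA1 ran from 1.86 in mouse 1 to 8.30 in mouse 4. The differences from tTA mice were 0.51 (CA1, SE 0.94), 1.62 (CA3, SE 0.98) and 0.00 (DG, SE 0.69), with limma adjusted p of 0.843 or more, and the CA1 value was −0.14 without rTg4510 mouse 4. In the DG the means were 6.93 ± 1.31 (SD, n = 6) in rTg4510, 6.93 ± 0.71 (SD, n = 5) in tTA and 6.32 ± 1.43 (SD, n = 6) in DN mice.

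Of the membrane proteins, Aqp4 (1434449_at) was 6.49 ± 0.95 (SD, n = 6) in CA1 of rTg4510, 5.92 ± 0.67 (SD, n = 5) of tTA and 5.75 ± 0.56 (SD, n = 6) of DN mice. Its CA3 means, in the same order of genotypes and with the same n, were 6.78 ± 0.66, 6.28 ± 0.45 and 5.83 ± 0.60, and its DG means were 7.06 ± 0.96, 6.93 ± 0.48 and 6.37 ± 1.09. At this probe set the means of the water channel stood in the order DN, tTA, rTg4510 in each subfield. Neighbouring means were closer than the larger of their SDs. At the dimmer probe set, 1425382_a_at, the CA3 mean of tTA mice lay below that of DN mice. In the DG its rTg4510 mean was 1.15 above that of tTA mice, the highest difference of the 16 probe sets there. Of its 6 rTg4510 arrays, 4 lay above every tTA array. Gja1 (1415800_at) was 9.09 ± 0.56 (SD, n = 6), 8.74 ± 0.26 (SD, n = 5) and 8.62 ± 0.27 (SD, n = 6) in CA1. Its CA3 means were 9.04 ± 0.43, 8.89 ± 0.30 and 8.55 ± 0.44 and its DG means 9.67 ± 0.42, 9.36 ± 0.17 and 9.18 ± 0.49. At this probe set the connexin kept the same order of means in each subfield. Its differences between rTg4510 and tTA mice were 0.35 (SE 0.24), 0.14 (SE 0.24) and 0.31 (SE 0.24). The 4 other Gja1 probe sets were between −0.66 and 1.07 in these comparisons.

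Aldoc (1451461_a_at), the glycolytic enzyme, was 7.96 ± 0.55 (SD, n = 6) in CA1 of rTg4510, 7.51 ± 0.38 (SD, n = 5) of tTA and 7.26 ± 0.39 (SD, n = 6) of DN mice. In CA3 it was 7.93 ± 0.37, 7.43 ± 0.81 and 7.36 ± 0.80, and in the DG 8.40 ± 0.83, 8.02 ± 0.24 and 7.57 ± 0.54. At this probe set it too stood in the order DN, tTA, rTg4510 in each subfield. At the dimmer probe set, 1424714_at, the mean of tTA mice lay above that of rTg4510 mice in CA3 and in the DG. The differences between rTg4510 and tTA mice were 0.45 (CA1, SE 0.26), 0.49 (CA3, SE 0.39) and 0.38 (DG, SE 0.35). The 9 groups of a gene were also ordered by mean over all subfields. None of the 8 neighbouring pairs stood apart by more than the larger of their SDs, in any of the 6 genes. Groups of other subfields can lie between the genotypes of a subfield, so this order cannot show whether those genotypes stand apart. In CA1, rTg4510 and tTA mice differed by 1.09 for Sox9 (SDs 0.15 and 0.19) and by 2.18 for Gfap (SDs 1.38 and 0.57). Both exceeded the larger SD, while the CA1 differences of Vim, Aqp4, Gja1 and Aldoc did not.

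Of the 16 probe sets, 0 passed the threshold in each of the comparisons of genotypes. Against tTA mice, the CA1 difference was above 0 for 15 of the 16 (median 0.50, over all probe sets −0.02). The same count for CA3 was 15 (median 0.50, over all −0.03), and for the DG it was 12 (median 0.15, over all −0.01). At an unadjusted p under 0.05, the number higher was 4 of 16 for CA1, 1 for CA3 and 0 for the DG, and 0 were lower. The share of all probe sets that was higher by that rule was 2.08% (CA1), 2.65% (CA3) and 2.54% (DG), and 0%, 0.00442% and 0% passed the adjusted threshold in either direction. The 4 in CA1 were both Gfap probe sets, the brighter one of Sox9 and 1 of Gja1 (1437992_x_at). A measure of RNA quality, the log2 signal of the 3′ less that of the 5′ control probe set of Gapdh, averaged 2.39 ± 0.21 (SD, n = 6) on the CA1 arrays of rTg4510 and 2.14 ± 0.32 (SD, n = 5) on those of tTA mice. The CA3 values were 2.32 ± 0.14 against 2.61 ± 0.18, the DG values were 2.94 ± 0.42 against 2.49 ± 0.20, and its part in these differences was not tested. Without the 5 doubted arrays the adjusted threshold was passed by 1 member in CA1, which was Sox9, and by 0 in CA3 and in the DG. In CA1 this is the same fit as that without DN mouse 4, whose array is the only CA1 array among the 5.

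**Figure D2:**
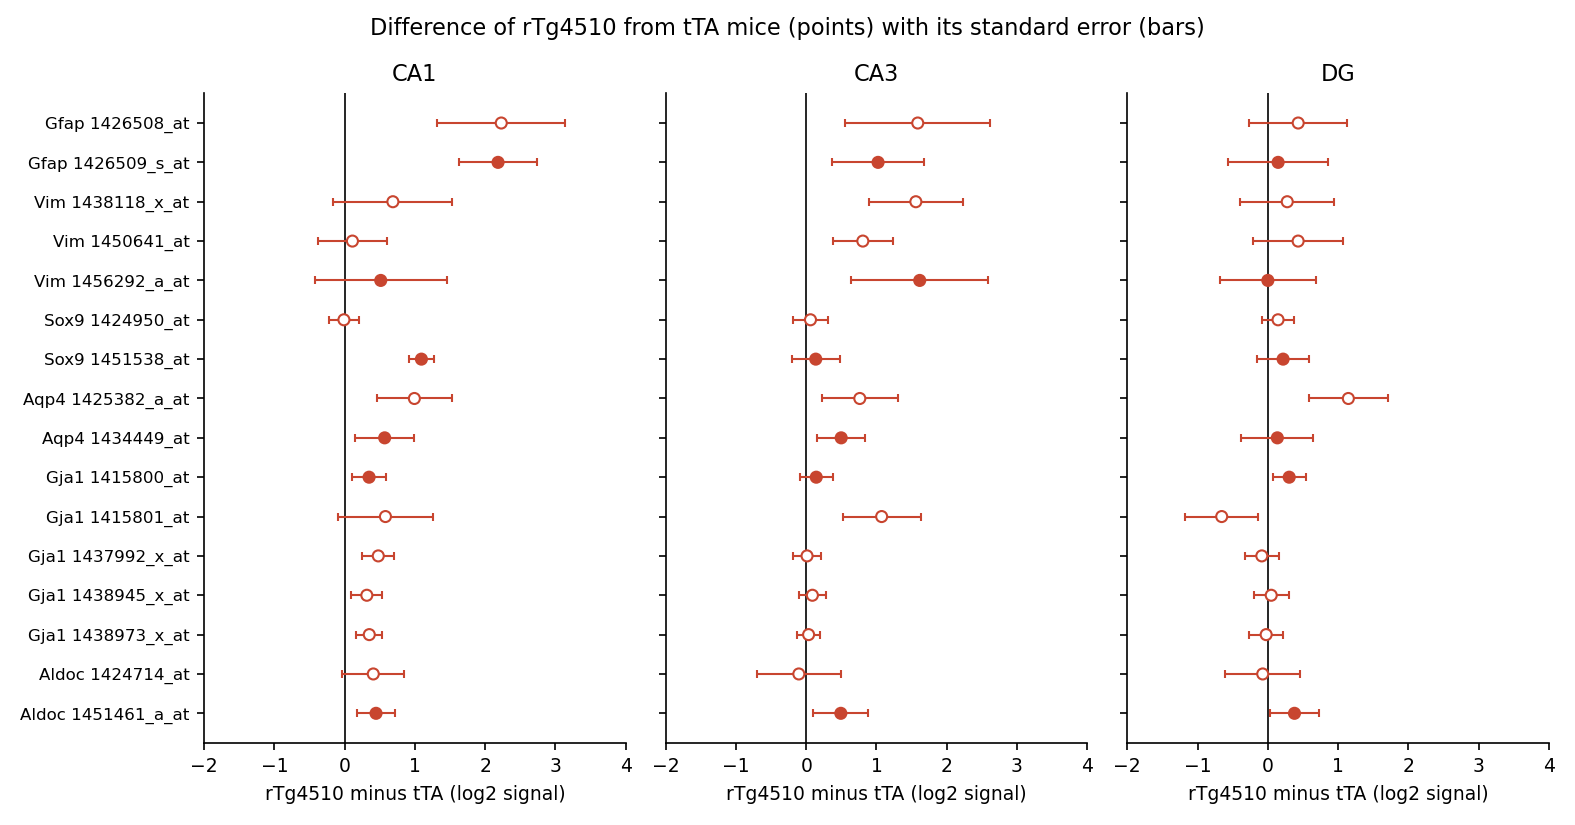
Difference between rTg4510 and tTA mice (x axis, log2 signal) for each of the 16 probe sets in CA1, CA3 and the DG, with the brightest probe set of each gene filled and bars of 1 standard error. In CA1 and in CA3, 15 of the 16 points lie to the right of 0, with those of Gfap farthest out in CA1 at 2.18 and 2.23, and the points of the DG lie on both sides of 0.

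Against DN mice, which differ by both transgenes, the number of the 16 probe sets above 0 was 16 for CA1, 15 for CA3 and 16 for the DG, with median differences of 0.72, 0.55 and 0.63. At an unadjusted p under 0.05, 8, 7 and 4 of the 16 were higher, where 2.74%, 1.98% and 2.12% of all probe sets were, and 0.00442%, 0% and 0% of all passed the adjusted threshold, none of them a member. The mean of tTA mice lay above that of DN mice for 12, 10 and 16 of the 16 probe sets, in the same order of subfields, and 0, 3 and 2 were higher and 0 lower at an unadjusted p under 0.05. Of all probe sets, 4.59%, 6.13% and 5.21% differed in either direction by that rule in this comparison, and 0% passed the adjusted threshold in each subfield. The 3 comparisons share their samples and are given side by side for that reason.

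The 3 subfields of each mouse were also averaged. The mean of rTg4510 mice was above that of tTA mice for all 16 probe sets (2 at an unadjusted p under 0.05, where 2.58% of all were higher and 0% passed the adjusted threshold). It was above that of DN mice for all 16 (10 at an unadjusted p under 0.05, where 2.74% of all were higher and 0% passed), by 1.32 (SE 0.49) for Gfap, 0.87 (SE 0.22) for Sox9, 0.79 (SE 0.33) for Aqp4, 0.70 (SE 0.22) for Aldoc, 0.48 (SE 0.17) for Gja1 and 0.46 (SE 0.57) for Vim. Between tTA and DN mice, 12 of 16 were above 0 (1 at an unadjusted p under 0.05, where 2.90% of all were higher and 0% passed). The lowest adjusted p of a member in these 3 comparisons was that of Sox9 against DN mice (limma adjusted p = 0.659), and with mice as a random block over all 51 arrays that value was 0.0487. That block sets the same correlation of 0.0454 within a mouse for all probe sets, so that the 3 arrays of a mouse count as nearly independent. Sox9 itself correlated between subfields at r = 0.429 to 0.577 over the 17 mice.

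Whether the rTg4510 difference was larger in CA1 than elsewhere was tested on the differences within each mouse. Mice were paired by the labels, which are in doubt for the DG arrays of DN mouse 5 and rTg4510 mouse 3. For Sox9 the difference from tTA mice was larger in CA1 than in CA3 by 0.96 (SE 0.30, unadjusted p 0.00529, limma adjusted p = 0.9998) and than in the DG by 0.88 (SE 0.35, limma adjusted p = 0.990). For Gfap these values were 1.16 (SE 0.60) and 2.04 (SE 0.74, limma adjusted p = 0.990). For Vim, against CA3, the value was −1.10 (SE 1.21), with the larger difference in CA3. At an unadjusted p under 0.05, 1 of the 16 was higher in CA1 against CA3 and 2 against the DG, where 2.23% and 2.56% of all probe sets were, and 0% passed the adjusted threshold in both tests.

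The subfields differed, with most of the astrocyte probe sets higher in the granular layer of the DG than in the pyramidal layers. With each mouse as a block, 12 of the 16 probe sets were lower in CA1 than in the DG and 11 were lower in CA3 than in the DG at the adjusted threshold, and 0 were higher. Of all probe sets, 5.33% were lower in CA1 than in the DG and 6.59% were lower in CA3 than in the DG. Between CA1 and CA3, 0 of the 16 differed, where 4.68% of all did, and 1 of the 16 had an unadjusted p under 0.05 (Vim 1438118_x_at). The 12 and 11 include all probe sets of Gfap, Vim and Gja1. The 3′ less 5′ signal of Gapdh averaged 2.76 ± 0.34 on the 17 DG arrays, 2.38 ± 0.33 on those of CA1 and 2.46 ± 0.27 on those of CA3 (each SD, n = 17), and its part in the differences between subfields was not tested.

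At the brightest probe sets, the filament genes had the largest differences of the 6. Gfap ranged over the 17 mice from 3.71 over a median of 5.01 to 8.65 (CA1), from 3.78 over 6.18 to 8.06 (CA3) and from 3.48 over 7.80 to 8.79 (DG). The DG was higher than CA1 in 14 of 17 mice, on average by 1.98 (SE 0.30, 3.94-fold, limma adjusted p = 9.76e-06), and higher than CA3 in 15 of 17, by 1.42 (SE 0.30, 2.68-fold, limma adjusted p = 0.000750). Vim ranged from 1.86 over 4.09 to 8.30 (CA1), from 1.21 over 3.97 to 7.61 (CA3) and from 4.77 over 6.78 to 8.72 (DG). The DG was higher in 16 of 17 mice against CA1, by 2.17 (SE 0.48, limma adjusted p = 0.00149), and in 16 of 17 against CA3, by 2.57 (SE 0.48, limma adjusted p = 0.000139). At a second Vim probe set, 1438118_x_at, the DG was above both pyramidal layers in all 17 mice as labelled. The subfields overlapped for both genes when mice were not paired.

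At their brightest probe sets the other genes differed by less, while the dimmer Gja1 probe set 1415801_at differed by 1.27 between the DG and CA3, above the 0.93 of Vim 1450641_at. Gja1 was higher in the DG than in CA1 by 0.58 (SE 0.10, limma adjusted p = 9.6e-05), in 14 of 17 mice, and than in CA3 by 0.58 (SE 0.10, limma adjusted p = 6.79e-05), in 15 of 17. Aqp4 was higher by 0.72 (SE 0.18, limma adjusted p = 0.00484) against CA1 and by 0.48 (SE 0.18, limma adjusted p = 0.0683) against CA3, and Sox9 by 0.66 (SE 0.17, limma adjusted p = 0.00579) and 0.48 (SE 0.17, limma adjusted p = 0.0495). The call of Sox9 against CA3 was near the threshold and was kept in 5 of the 17 fits that left out 1 mouse, with adjusted p up to 0.103. It was also lost in 6 alternatives, namely the intensity trend, array weights, centring, quantile normalization, a random block and no block for the mouse, with adjusted p between 0.0525 and 0.177. Aldoc was 0.41 (SE 0.17) higher against each layer, in 13 and 12 of 17 mice, and did not pass (limma adjusted p = 0.116 and 0.0978). Without the block for the mouse, 9 members were lower in CA1 and 10 in CA3 than in the DG, and without the 5 doubted arrays 12 and 12.

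**Figure D3:**
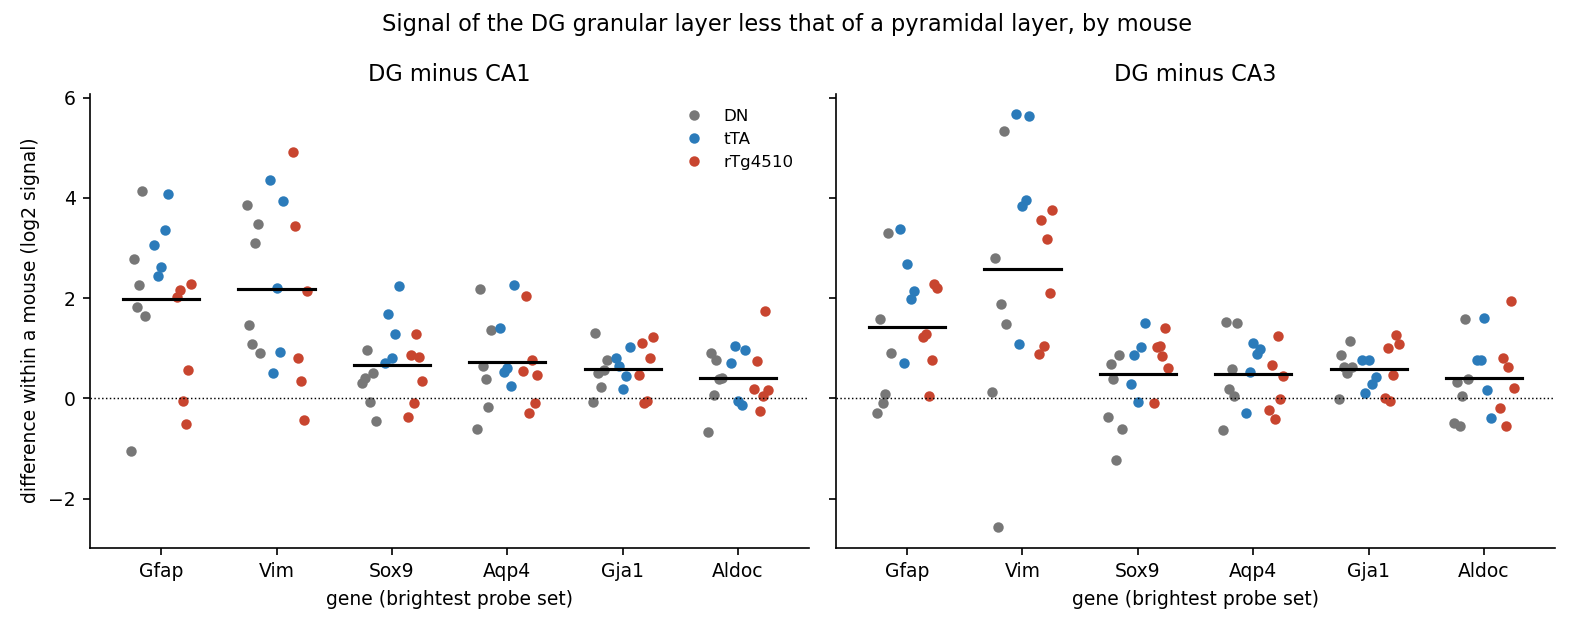
Difference within each of the 17 mice, paired by the labels, between the DG and CA1 (left) or CA3 (right) for the brightest probe set of each gene (y axis, log2 signal). Points are coloured by genotype and black lines mark the mean over mice. Most points lie above the dotted line at 0 for each gene, and the differences of Gfap and Vim reach above 4 in CA1 and, for Vim, above 5 in CA3.

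The difference between the DG and CA1 was also taken within each genotype, without a test between genotypes. The doubted arrays were kept, and the means were not taken without them. The doubted DG array of DN mouse 5 read 8.07 for Gfap beside 3.92 in CA1, the highest DN difference at 4.14. That of rTg4510 mouse 3 read 6.22 beside 6.28 in CA1. For Gfap the DG exceeded CA1 by 3.11 ± 0.65 (SD) in tTA mice, in 5 of 5, by 1.93 ± 1.71 in DN mice, in 5 of 6, and by 1.08 ± 1.23 in rTg4510 mice, in 4 of 6. For Gja1 the same values were 0.62 ± 0.32, 0.55 ± 0.47 and 0.58 ± 0.56, which are close to each other beside their spread. Sox9 was higher in the DG than in CA1 by 1.34 ± 0.64 in tTA mice, in 5 of 5, by 0.47 ± 0.63 in rTg4510 mice, in 4 of 6, and by 0.28 ± 0.48 in DN mice, in 4 of 6.

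Other astrocyte genes were taken from lists by function, each read at its brightest probe set. Their counts stand beside the shares of all probe sets that were lower in CA1 (5.33%) or CA3 (6.59%) than in the DG. Those shares include dim probe sets and several of the same gene, so they are not over a like set. Of 6 secreted proteins of astrocytes, 5 were lower in CA1 than in the DG at the adjusted threshold (median difference −0.64, over all genes 0.02) and 4 were lower in CA3 (median −0.49, over all genes 0.05). They include Sparcl1, a synapse-organising matrix protein, at −0.85 (SE 0.13) and −1.05 (SE 0.13), and Clu (clusterin) at −0.49 (SE 0.11) and −0.59 (SE 0.11). Of 6 transcription factors, 3 were lower in CA1 and 3 in CA3, with Nfia, a factor that starts astrocyte formation, at −1.22 (SE 0.20) and −1.69 (SE 0.20). Of 5 membrane proteins measured, 1 and 2 were lower, with the bicarbonate transporter Slc4a4 at −1.31 (SE 0.24) and −1.58 (SE 0.24). Of the measured members of the list of metabolism, 1 of 7 was lower in CA1 and 3 of 7 in CA3. In that list S100b, a calcium-binding protein, was higher in CA1 than in the DG by 0.62 (SE 0.15). The glutamate transporter Slc1a2 was lower in CA1 than in the DG (−0.57, SE 0.12) and than in CA3 (−0.62, SE 0.12, limma adjusted p = 0.000809), and CA3 less the DG was 0.05 (SE 0.12).

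Genes listed for neural progenitors and immature neurons were read beside these. Not all of them are particular to the granular layer. Sox4 was also higher in CA1 than in CA3, by 1.20 (SE 0.21, limma adjusted p = 0.00015). Of 6 measured genes of neural progenitors and immature neurons, 3 were lower in CA1 and in CA3 than in the DG, namely Hopx, a marker of quiescent stem cells, at −1.38 (SE 0.36) and −1.43 (SE 0.36), Sox11, a factor of immature neurons, at −2.004 (SE 0.16) and −1.59 (SE 0.16), and Sox4 at −0.78 (SE 0.21) and −1.98 (SE 0.21). The defining progenitor markers Nes and Eomes were at mean signals of 1.74 and 1.71, below the median of the arrays, and differed from the DG by −0.10 and −0.06 in CA1 and by 0.02 and 0.00 in CA3. Their part in the higher Gfap and Vim of the DG was not tested. Either way, 10.9% of all probe sets differed between CA1 and the DG and 13.9% between CA3 and the DG, so that counts near 0 in lists of this length are close to those shares. For genes of other glia and vessels, 0 of 13 microglia genes, 0 of 12 oligodendrocyte genes and 0 of 11 vessel genes differed between CA1 and the DG. Between CA3 and the DG, 1 microglia gene was higher and 2 were lower in CA3, 1 oligodendrocyte gene was higher, and 0 vessel genes differed.

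Of 16 other genes known from reactive astrocytes, 6 were above 0 between rTg4510 and tTA mice in CA1, with a median of −0.09, while 46.5% of all 11807 genes were above 0 with a median of −0.02. Of the 16, 0 passed in each comparison of genotypes. Serpina3n, a protease inhibitor, differed by 0.23 (SE 0.32) and Osmr, the receptor of oncostatin M, by 0.95 (SE 0.48), and Lcn2, Cd44 and Timp1 differed by −0.12 (SE 0.15), 0.08 (SE 0.16) and −0.13 (SE 0.17). Mean signals were under the median of the arrays for 14 of the 16. The exceptions were Serpina3n at 6.77 and Stat3 at 3.99. Of 8 other intermediate filament genes measured, 6 were above 0 in CA1 with a median of 0.09, and of 7 relatives of Sox9, Aqp4, Gja1 and Aldoc, 3 were above 0 with a median of −0.02.

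The further astrocyte lists were read in the same comparison. In CA1 all 6 secreted proteins were above 0 between rTg4510 and tTA mice, with a median of 0.43. The counts were 2 of 2 for glutamate and amino acid handling (median 0.28), 4 of 5 for membrane proteins (median 0.14), 6 of 7 for metabolism (median 0.17) and 3 of 6 for transcription factors (median 0.01). The median of the 6 members by their brightest probe sets was 0.54.

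Genes of other glia and of vessels were read on the same arrays. In CA1 between rTg4510 and tTA mice, 12 of 13 microglia genes were above 0 (median 0.68), as were 12 of 12 oligodendrocyte genes (median 1.04) and 9 of 11 genes of blood vessels (median 0.31). For the 8 neuron genes 5 were above 0 with a median of 0.01, and for meninges, choroid plexus and progenitors the medians were 0.02, 0.00 and −0.03. Mean signals lay under the median of the arrays for 4 of the 6 meninges genes, all 5 choroid plexus genes and 9 of the 13 microglia genes. The brightest meninges gene, Ptgds (mean signal 8.37), a prostaglandin synthase also made by oligodendrocytes, differed by 1.53 (SE 0.50, limma adjusted p = 0.999). None of these genes passed the threshold. Tyrobp and Ctss of microglia differed by 1.43 (SE 0.44) and 1.53 (SE 0.41), and Mbp, the myelin basic protein, by 1.24 (SE 0.68). In CA3 the medians were 0.38 for microglia, 0.86 for oligodendrocytes and 0.28 for vessels, and in the DG −0.22, 0.75 and 0.32. Their part in the differences of the 6 genes was not tested.

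The same arrays were high for several of these lists. A list's score on an array is the average, over the genes of the list, of the signal after the gene's mean in that subfield was taken off. The score of the 6 genes in CA1 ran from −0.74 to 0.12 in tTA mice, from −0.77 to 0.25 in DN mice and from −0.06 over a median of 0.20 to 2.04 in rTg4510 mice, with mouse 4 the highest. Over the 51 arrays the score of the 6 genes correlated at r = 0.803 with the secreted proteins, 0.744 with microglia, 0.707 with vessels, 0.626 with oligodendrocytes and −0.253 with neurons, and without rTg4510 mouse 4 at 0.714, 0.653, 0.594, 0.460 and −0.080, as a description of arrays of which each mouse gives 3. The array of rTg4510 mouse 4 in CA1 was also the highest of its group for microglia (1.70, against −0.40 to −0.16 in tTA mice), oligodendrocytes (1.91, against −0.96 to 0.90) and vessels (0.84, against −0.26 to 0.25). The neuron scores in CA1 ran from −0.22 to 0.15 in rTg4510 and from −0.28 to 0.20 in tTA mice. Averaged over subfields, the score of the 6 genes was 1.46 in rTg4510 mouse 4 and between −0.25 and 0.69 in the other 5 rTg4510 mice, with 0.49 in the mouse labelled DN 4.

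**Figure D4:**
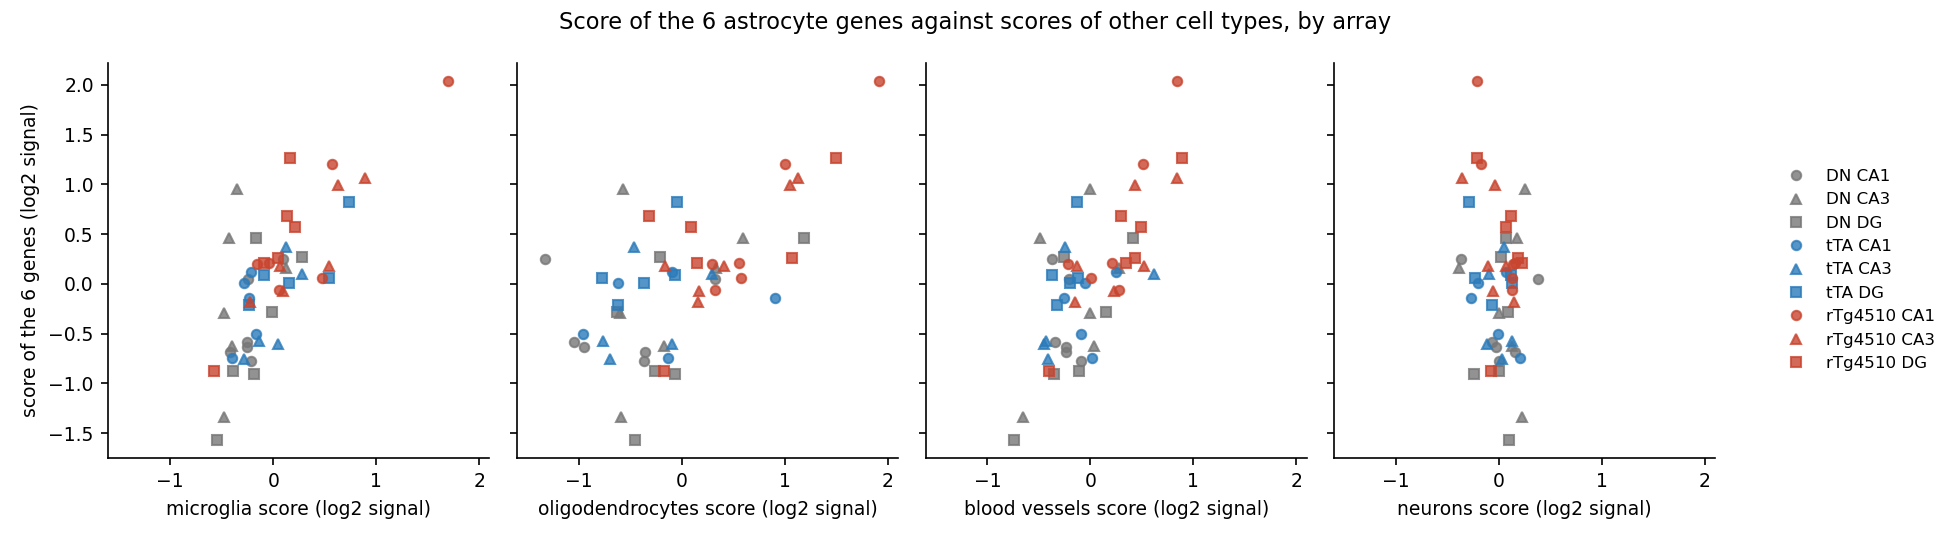
Score of the 6 genes (y axis) against the scores of microglia, oligodendrocyte, blood vessel and neuron genes (x axes) on the 51 arrays, in log2 signal less the mean of the subfield, with colours for genotypes and shapes for subfields. Pearson r over the arrays is 0.744 for microglia, 0.626 for oligodendrocytes, 0.707 for vessels and −0.253 for neurons, and the array of rTg4510 mouse 4 in CA1 is the highest on the y axis at 2.04.

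The members varied together from array to array. With subfield means removed, Pearson r between brightest probe sets over the 51 arrays was highest for Aqp4 and Gja1 (0.794), Gja1 and Aldoc (0.756) and Gfap and Gja1 (0.748), and lowest for Vim and Aldoc (0.363). These are descriptions over arrays of 17 mice, of which each mouse gives 3. Probe sets of the same gene agreed best for the _x_at sets of Gja1, at 0.929 to 0.957, and at 0.865 for Gfap.

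Genes with the pattern most like each member were looked up over all arrays. Among 6092 other genes, the 5 most like Gfap over the 51 arrays were Ctss (r = 0.717), a lysosomal protease of microglia, Cst3 (0.715), its secreted inhibitor cystatin C, Kcnj10 (0.686), the potassium channel Kir4.1 of astrocytes, Selenop (0.664), a selenium transport protein, and Tmem176b (0.657). Apoe (0.786) and Selenop (0.745) were most like Gja1, Selenop (0.755) and Olig1 (0.70) most like Aqp4, Dbi (0.764) and Acsbg1 (0.698) most like Aldoc, Npas3 (0.679) and Wipf1 (0.527) most like Sox9, and Timp2 (0.653) and Npas3 (0.556) most like Vim. All these are descriptions of pairs chosen for their r. Over the means of the 17 mice, r between Gfap and Ctss was 0.843, and without rTg4510 mouse 4 it was 0.656 over the remaining arrays.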

How the data were processed

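RNA of laser-captured CA1, CA3 and DG neuron layers was amplified (Ovation Pico WTA) and put on Affymetrix HT-MG-430A arrays. The authors deposited RMA signals, which are background-corrected, normalized between arrays and summarised per probe set. The methods describe anti-logged signals, whereas the values as deposited are log2. The version of the RMA software and the arrays normalized together are not given in the sources used here. After 90 control probe sets were set aside, 22626 were tested without a filter. The annotation gives 1 symbol to 18003 of them, several to 287 and none to 4336, and probe sets without a symbol were not counted as members. Prnp was named from the study's supplementary tables. For gene lists and the search for like genes, each of 11807 genes was read at its brightest probe set, and the search left out probe sets below the median.

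For each subfield, 1 limma fit (version 3.58.1, R 4.3.3) held the 3 genotypes, and p-values were adjusted by Benjamini-Hochberg over all probe sets, with a threshold of 0.05. The same was done on means and differences of subfields within a mouse. Subfields were compared over the 51 arrays with the mouse as a block. The pairing comes from the labels, which give 3 arrays to each mouse. Once group means were removed, the mean r was 0.0492 between arrays of the same mouse and −0.021 between arrays of different mice. The study's test, Fisher's LSD, was an alternative, as were array weights, an intensity trend, a filter on dim probe sets (the 40th percentile), centring, quantile normalization, fits of 2 genotypes, a random block for the mouse, no block, 1 probe set per gene and leaving out each mouse. The fits without 5 or 7 doubted arrays were added after seeing the data. The fits were tested on simulated data. The number of arrays limits the precision, which the standard errors give.

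The 6 genes and the 15 lists were chosen with earlier results of these data known. The genes named are all probe sets of the 6 genes, the list members past the threshold in a comparison of genotypes or else the first of a list as written, and the genes most like each member. Genes of the lists past the threshold between subfields, Osmr, Stat3, Tyrobp, Ctss, Timp1 and Ptgds were chosen after their values were seen. Plots were made in Python 3.11.15 (matplotlib 3.10.9).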

Additional observations from a re-analysis of the deposited data

Results flagged for a closer look

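Within the groups of 5 or 6 mice, 4 of 54 combinations of gene and group held an array that stood apart by the 95% critical value of Dixon's test, where chance marks about 1 in 20. The array of rTg4510 mouse 4 in CA1 was the highest for Aldoc at 9.02, with the next at 7.99. The array labelled DN mouse 5 in CA3, 1 of the 7 doubted arrays, was the lowest for Aldoc at 5.86, with the next at 7.30. The array of tTA mouse 3 in CA1 was the highest of its group for Gja1 at 9.20, with the next at 8.72, and that of tTA mouse 4 in CA3 was the lowest for Sox9 at 3.89, with the next at 4.43.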

How the results depend on the processing

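Counts of members past the threshold were 0 in 14 comparisons of genotypes and moved to 1, always Sox9, in 3 of them. For rTg4510 against tTA mice in CA1 the count was 1 with Fisher's LSD on linear signals, array weights, only the 2 genotypes, and without the 5 or the 7 arrays, and 0 to 1 when 1 mouse was left out. For rTg4510 against DN mice in CA1 it was 1 with Fisher's LSD on linear signals, array weights and without the 5 or the 7 arrays, and 0 to 1 when 1 mouse was left out. In CA1, leaving out the 5 arrays and leaving out DN mouse 4 are the same fit. In the mean of subfields of rTg4510 against DN mice the count was 1 with the mouse as a random replicate block. That block counts the 3 arrays of a mouse as nearly independent. The causes of these moves were not tested. The replicate block moved no other count of genotypes. Between subfields the counts were 9 to 13 of 16 (CA1 against the DG) and 10 to 12 (CA3 against the DG) in fits of all 16 probe sets, 9 and 10 of them without the replicate block, where the calls of Sox9 and Aqp4 against CA1 were lost (adjusted p of 0.0534 and 0.0785), as was that of Sox9 against CA3 (0.177), and 0 between CA1 and CA3.

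Of single genes, 25 values reversed in fits other than those leaving out 1 mouse. Between tTA and DN mice, Gfap in CA1 was 0.199 with array weights and 0.087 without the 5 arrays, Gfap in CA3 0.234 and 0.131 without the 5 and the 7, Sox9 in CA1 0.06 and 0.061 without the 5 and the 7, Aldoc in CA3 −0.017 with array weights and −0.319 without the 7, and Vim in the mean 0.058 with array weights. Vim in CA3 was 0.107 between rTg4510 and DN mice without the 5, and in the DG −0.068 with array weights and −0.008 when centred between rTg4510 and tTA mice. For the rTg4510 difference in CA1 less that elsewhere, Aqp4 against CA3 was −0.032 with array weights, and against the DG Gja1 was −0.091 and Aldoc −0.07 without the 5 and without the 7. CA1 less CA3 was −0.011, −0.037, −0.007, −0.016 and −0.055 for Gja1 (array weights, centring, random block, without 5, without 7) and 0.003, 0.003 and 0.044 for Aldoc (quantile normalization, random block, without 5).

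Leaving out 1 mouse gave reversals within these ranges. For rTg4510 less tTA mice they were −0.135 to 1.154 for Vim in CA1, −0.021 to 0.301 for Sox9 in CA3, and in the DG −0.341 to 0.429 for Vim, −0.179 to 0.376 for Aqp4 and −0.019 to 0.45 for Gfap. For tTA less DN mice they were −0.344 to 0.087 for Gfap in CA1, −0.178 to 0.06 for Sox9 in CA1, −0.622 to 0.234 for Gfap in CA3, −0.229 to 0.376 for Aldoc in CA3, and in the mean −0.136 to 0.55 for Gfap and −0.542 to 0.147 for Vim. Vim in CA3 was −1.018 to 0.262 for rTg4510 less DN mice. The rTg4510 difference in CA1 less that in CA3 was −0.261 to 0.324 for Aqp4 and −0.404 to 0.353 for Aldoc, and less that in the DG −0.091 to 0.171 for Gja1 and −0.07 to 0.329 for Aldoc. CA1 less CA3 was −0.035 to 0.038 for Gja1 and −0.106 to 0.084 for Aldoc. The causes were not tested. With 5 or 6 mice a genotype, signs of differences this near 0 were not settled.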
